A study of Mus musculus with 6 samples.

Results

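Pituitary cells marked by the thyrotropin beta gene were compared at 2 ages, in the adult mouse at 7 weeks and at postnatal day 7 (P7). The comparison rests on 2 of the 6 libraries of the series, 1 per age, and covers the 47042 autosomal genes listed in both deposited tables, with 3 more listed in only 1 of them. The adult Tshbcre library came from 42 pooled glands and the P7 Tshbcre library from 5 pooled glands. Both groups carried Tshbcre, a Cre recombinase driven by Tshb, together with ROSAYFP, a fluorescent reporter that Cre switches on, and the fluorescent cells were collected by FACS after collagenase dispersal. The mark is inherited, so a labelled cell need not be making Tshb at the time of the sort. Whole glands of nontransgenic mice, 1 adult gland and 8 pooled glands at P7, give the level of each gene in the unsorted tissue at the same ages. Per the labels, RNA was sequenced after ribosomal RNA was removed, which keeps mRNA and also long non-coding RNA (lncRNA). With 1 library per group there was no test and no error between animals for any difference given here.

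Thyrotropes make thyrotropin, a dimer of the beta subunit encoded by Tshb and the alpha subunit encoded by Cga, which gonadotropes also use for luteinizing and follicle-stimulating hormone. Thyrotropin-releasing hormone from the hypothalamus stimulates them and thyroid hormone restrains them, partly through the deiodinase encoded by Dio2, which makes active thyroid hormone inside the cell. In the mouse the weeks after birth are a time of growth of the gland, and lactotropes, the prolactin cells, are known to multiply late, towards puberty.

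Values are FPKM, a fragment count corrected for transcript length and library size, summed over the transcripts of a gene and divided by 1 factor per library, and are called scaled FPKM. They are per length, so levels of different genes can be set side by side. Differences are of log2(scaled FPKM + 1), adult minus P7, so a positive value means higher in the adult. This scale understates the difference of low genes. The bounds quoted are the deposited ones, which describe how reads were counted and assigned inside 1 library and nothing about animals. A gene listed at 0 may be one whose reads were given to a transcript assembled without a name, so a difference against a listed 0 is no measure of size. Such genes do enter the counts of genes 4-fold apart, except where a count is limited to genes above 0 in both. Values with such transcripts of 200 nt or more added to their gene are given where they matter. In a pool of cells, fewer cells of a type and less RNA per cell cannot be told apart.

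The driver gene was present at both ages and lower in the adult pool. Tshb (mm39, chromosome 3, 102684621 to 102718175) was at 1075 scaled FPKM in the adult pool, within bounds of 1028 and 1122. At P7 the pool had 3001, within bounds of 2874 and 3127. The log2 difference was -1.48. The whole glands had 33.1 in the adult and 61.0 at P7. The sorted level was thus 3247% of that of the whole gland in the adult and 4917% at P7, so the gene that drove the sort was enriched at both ages. Cartpt, which encodes the neuropeptide precursor of the CART peptides, was nearly silent in the adult pool, at 0.312 against 8.78 at P7. Prl, the prolactin gene, went the other way, at 6546 in the adult pool and 21.7 at P7. The 250 bases before the start of each of these 3 genes are shown because they are the markers farthest apart between the ages, and the driver of the sort. They are RefSeq sequences of the build GRCm38.p6, older than the mm39 of the expression tables, read 5′ to 3′ on the strand of the gene. Tshb lies at chr3:102782715-102782964 on the minus strand, Cartpt at chr13:99900684-99900933 on the minus strand and Prl at chr13:27057320-27057569 on the plus strand.
Tshb: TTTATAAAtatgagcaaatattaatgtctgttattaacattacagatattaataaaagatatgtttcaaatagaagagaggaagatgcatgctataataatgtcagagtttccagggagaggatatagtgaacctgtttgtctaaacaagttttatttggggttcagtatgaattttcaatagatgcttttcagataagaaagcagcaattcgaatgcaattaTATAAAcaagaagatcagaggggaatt
Cartpt: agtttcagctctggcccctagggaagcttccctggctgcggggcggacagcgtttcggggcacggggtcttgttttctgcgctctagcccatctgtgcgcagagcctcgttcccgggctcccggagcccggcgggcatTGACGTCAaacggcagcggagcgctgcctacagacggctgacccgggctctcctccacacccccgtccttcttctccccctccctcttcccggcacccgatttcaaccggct
Prl: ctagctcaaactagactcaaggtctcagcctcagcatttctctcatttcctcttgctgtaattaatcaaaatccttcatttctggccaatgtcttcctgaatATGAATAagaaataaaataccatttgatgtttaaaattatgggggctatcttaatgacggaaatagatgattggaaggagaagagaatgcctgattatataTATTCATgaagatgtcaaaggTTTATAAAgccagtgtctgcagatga

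Capitals in these promoters mark 3 short motifs searched on both strands. They are TGACGTCA, the palindromic cAMP response element, TATAAA, the TATA box, and TATNCAT, a core bound by POU1F1-type factors. Tshb held TATAAA at -27 to -22 from the start and again at -248 to -243, where a match on the other strand overlaps it. Cartpt held the cAMP response element at -112 to -105. Prl held TATAAA at -24 to -19, overlapped by a match on the other strand, and TATNCAT at -47 to -41 and, on the other strand, at -148 to -142. Of the 32851 mouse promoters of the same RefSeq table, searched over the same 250 bases, 1.55% held the cAMP response element, 12.4% TATAAA and 7.92% TATNCAT. A match describes letters in this window and not a bound site.

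Marker RNA of several other cell types differed between the pools of marked cells. Expressed as a share of the whole gland of the same age, thyrotrope markers stood at a median of 564% in the adult pool and 427% at P7, over 7 genes. Their summed level was in the other order, at 866% in the adult and 1480% at P7, and Tshb, Dio2 and Cga were each less enriched in the adult pool, Dio2 at 1043% in the adult and 1716% at P7. Gonadotrope genes stood at a median of 484% in the adult and 226% at P7, over 12 genes, and their sum, which includes Cga, at 616% in the adult and 918% at P7. The shares of all lists use annotated transcripts alone, and members listed at 0 in a pool were kept. Nr5a1 and Foxl2 are listed at 0 at P7, and Isl1 and Gata2 were higher there with assembled transcripts added. Whether the order of the ages in the thyrotrope and gonadotrope medians depends on that addition was not tested. The medians were closer between the ages for somatotrope genes, at 47.4% in the adult and 58.7% at P7, for lactotrope genes, at 42.7% in the adult and 41.9% at P7, and for corticotrope genes, at 16.8% in the adult and 18.2% at P7. Melanotrope genes stood at 15.2% in the adult and 10.1% at P7, over 4 genes. Markers of stem, immune, endothelial and mesenchymal cells were closer to the level of the whole gland in the adult pool than at P7. Stem and folliculostellate genes stood at a median of 56.5% in the adult and 9.07% at P7, over 16 genes, and immune genes at 65.3% in the adult and 9.59% at P7, over 7 genes. Endothelial genes stood at 14.6% in the adult and 4.27% at P7, and mesenchymal genes at 14.1% in the adult and 2.70% at P7, over 12 genes each. Erythroid genes, at 10.2% in the adult and 10.03% at P7, and posterior lobe genes, at 10.9% in the adult and 7.86% at P7, differed less. The part that these cells have in the age differences below was not tested, and their values are given beside them.

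**Figure D1:**
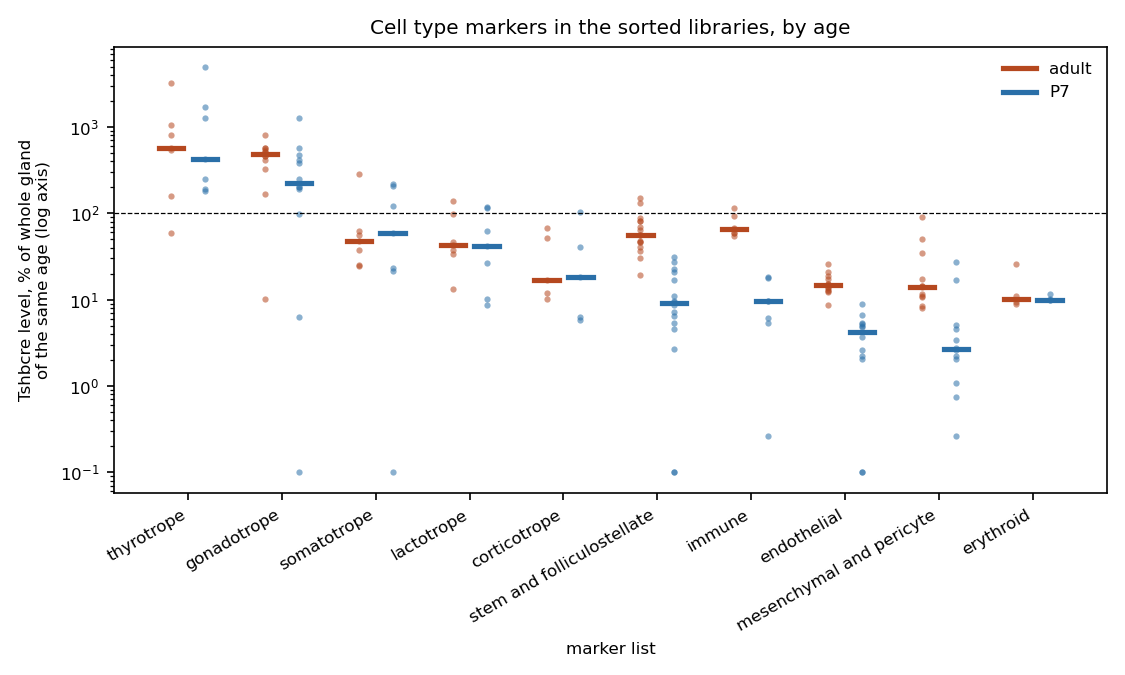
Level of each marker gene in the Tshbcre library as a percentage of the whole gland of the same age, on a log axis, for 10 marker lists, with adult left of P7. Points are genes at 1 scaled FPKM or more in both whole glands (values under 0.1% are drawn at 0.1%), bars are medians, and the dashed line is the level of the whole gland. The medians of stem, immune, endothelial and mesenchymal genes lie higher in the adult pool, while those of thyrotrope and gonadotrope genes lie above the line at both ages.

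The labels do not state the sex of the pooled mice. Xist, the RNA that coats the inactive X chromosome of female cells, stood at 0.106 in the adult Tshbcre library and 62.6 in the P7 Tshbcre library, and at 0.0599 and 17.04 in the adult and P7 whole glands. The Y-linked gene Ddx3y stood at 3.20 in the adult and 2.09 at P7 in the sorted libraries. Xist was near 0 in both adult libraries and high in both P7 libraries, while Y-linked transcripts were present in all 4. Age and the share of female cells therefore cannot be told apart here. The depth of the libraries was close, with a coverage per FPKM of 3.10 in the adult Tshbcre library and 3.08 in the P7 Tshbcre library, and 13291 genes reached 1 scaled FPKM in the adult pool and 13255 at P7.

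Over the 15377 autosomal genes at 1 scaled FPKM or more in either pool, 728 were at least 4-fold higher in the adult pool (4.73%) and 555 at least 4-fold lower (3.61%). Most of these 1283 genes, 86.4%, had a listed value of 0 at 1 of the ages. Among the 13353 genes above 0 in both, 93 were 4-fold higher (0.696%) and 81 were 4-fold lower (0.607%), and 55 of the higher and 51 of the lower were also so with assembled transcripts added. At 2-fold, the counts were 974 higher (7.29%) and 782 lower (5.86%), and these shares are the background for the counts of each list below. In the whole glands, 737 of 13666 genes above 0 at both ages were 2-fold higher in the adult (5.39%) and 801 lower (5.86%). The median log2 difference of the tested genes was -0.0147 between the pools, so the members of a list are read against a centre near 0. A member that reached 1 scaled FPKM in only 1 pool had to differ to some degree, so the direction of each leading list is also given over all its members.

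**Figure D2:**
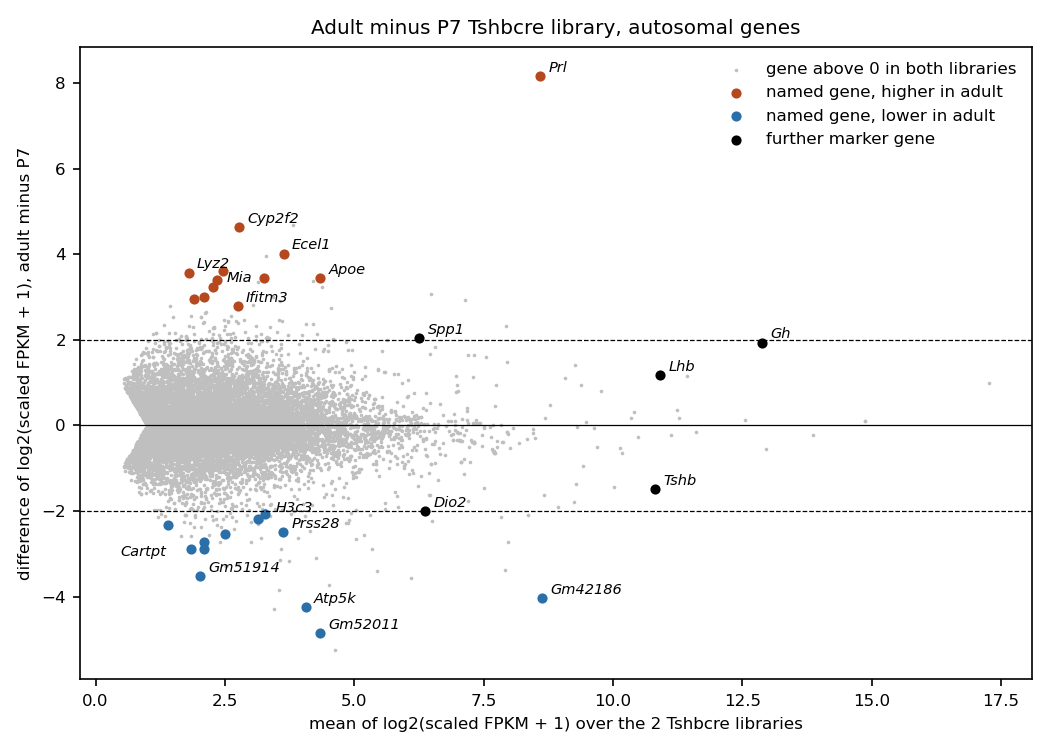
Difference of log2(scaled FPKM + 1), adult minus P7 Tshbcre, against the mean of the log2 values of the 2 libraries, for genes above 0 in both. Coloured points are genes named by size of difference, black points further markers, and dashed lines mark 4-fold. Prl lies far above the rest at 8.18, and Tshb and Dio2 lie at -1.48 and -2.00.

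Thyrotrope genes were for the most part lower in the adult pool. Of 13 genes on the list, 12 are autosomal, 11 reached 1 scaled FPKM and 9 were above 0 in both pools, of which 8 were lower in the adult and 4 of these 2-fold lower. Over all 12 members, 10 were lower in the adult and 2 higher. The median was -0.70, and -0.82 with assembled transcripts added, against -0.17 in the whole glands. Dio2 stood at 40.4 in the adult pool, with bounds of 38.6 and 42.2, and at 164 at P7, with bounds of 158 and 171. Its log2 difference of -2.00 fell just short of the 4-fold line, and the whole glands had 3.87 in the adult and 9.59 at P7. Dio2 and Tshb were both lower in adult whole glands too, by less than in the sorted cells. Rxrg, a retinoid X receptor with known effects on thyrotropin in mice, stood at 11.3 in the adult pool and 24.5 at P7. Sox14, which encodes a transcription factor, stood at 0.512 in the adult and 2.58 at P7. Pou1f1, the factor shared by thyrotropes, somatotropes and lactotropes, stood at 23.1 in the adult pool and 38.3 at P7, while between the whole glands the adult had the higher level, at 39.0 in the adult against 21.4 at P7.

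Trhr, the receptor for thyrotropin-releasing hormone, differed less than the hormone gene, at 10.9 in the adult pool and 14.6 at P7, or 15.97 in the adult and 34.6 at P7 with assembled transcripts added. Isl1, a LIM homeodomain factor, stood at 10.5 in the adult and 13.4 at P7, or 20.5 in the adult and 46.5 at P7 with assembled transcripts added. The addition thus widened both differences to over 2-fold. Gata2, a factor that acts with POU1F1 on Tshb in mice, was the member above 0 in both that was higher in the adult, at 44.9 in the adult against 19.6 at P7, but at 64.6 in the adult against 54.7 at P7 with assembled transcripts added. Foxl2 stood at 22.1 in the adult pool and is listed at 0 at P7, and stood at 27.5 in the adult and 18.8 at P7 with assembled transcripts added.

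Genes of the response to thyroid hormone gave no common direction. Of 18 measured members of that list, 17 were above 0 in both pools, with 3 of them 2-fold higher and 2 lower, and a median of 0.06 over these. The receptors stood close between the ages, Thrb at 11.7 in the adult pool and 11.2 at P7 and Thra at 21.0 in the adult and 20.01 at P7, with overlapping bounds for each. Both differences turn negative when the libraries are scaled to an equal sum of FPKM. Thrsp, a gene induced by thyroid hormone in the liver, stood at 5.05 in the adult pool and 1.55 at P7, and Hr, a corepressor gene known to respond to the hormone, at 3.82 in the adult and 1.45 at P7. Klf9, another such gene, stood at 7.22 in the adult and 5.60 at P7. Sstr1, a somatostatin receptor gene, ran the other way, at 0.730 in the adult pool and 4.48 at P7, with no such difference in the whole glands, at 2.34 in the adult and 1.86 at P7. Ttr, which encodes a carrier of thyroid hormone, is listed at 0 in the adult pool and stood at 6.35 at P7.

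The beta subunits of the other glycoprotein hormones were higher in the adult pool, as Tshb and Cga were lower. Cga (chromosome 4, 34893779 to 34907374) stood at 6546 in the adult pool and 9593 at P7, a difference of -0.55. Lhb (chromosome 7, 45066912 to 45071279), for luteinizing hormone, stood at 2904 in the adult and 1278 at P7, and Fshb (chromosome 2, 106886331 to 106889996), for follicle-stimulating hormone, at 928 in the adult and 482 at P7. Both were also higher in the adult whole gland, Lhb at 637 in the adult against 312 at P7 and Fshb at 180 in the adult against 85.1 at P7. Tshb per unit of Cga was 0.164 in the adult pool and 0.313 at P7, and Tshb per unit of Lhb was 0.370 in the adult and 2.35 at P7. The whole glands had ratios of Tshb to Lhb of 0.0520 in the adult and 0.196 at P7, so the order of the ages was the same there.

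Gh, the growth hormone gene (chromosome 11, 106191087 to 106194529), stood at 14806 in the adult pool and 3870 at P7. It was the most abundant of the 7 hormone genes in the adult pool, with 44.8% of their summed level against 21.1% at P7. Its level in the adult whole gland was not analysed here, and the P7 whole gland had 6031. Prl (chromosome 13, 27241553 to 27249187) had bounds of 6273 and 6820 in the adult pool and of 18.97 and 24.3 at P7, and its difference of 8.18 was 289-fold on the log2(scaled FPKM + 1) scale. The adult whole gland had 17579 and the P7 whole gland 82.5, a difference of 7.72, so the difference between the pools ran alongside one of similar size in the unsorted tissue. Prl took 19.8% of the summed hormone genes in the adult pool and 0.118% at P7. Tshb took 3.25% in the adult pool and 16.4% at P7, and Cga 19.8% in the adult pool and 52.3% at P7. Pomc, the corticotropin precursor (chromosome 12, 4004945 to 4010643), stood at 260 in the adult and 82.6 at P7, or 0.788% of the sum in the adult pool and 0.451% at P7. Tshb and Cga, Cga being shared with the gonadotropins, thus made up a minority of the hormone RNA of the adult pool and most of that of the P7 pool.

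**Figure D3:**
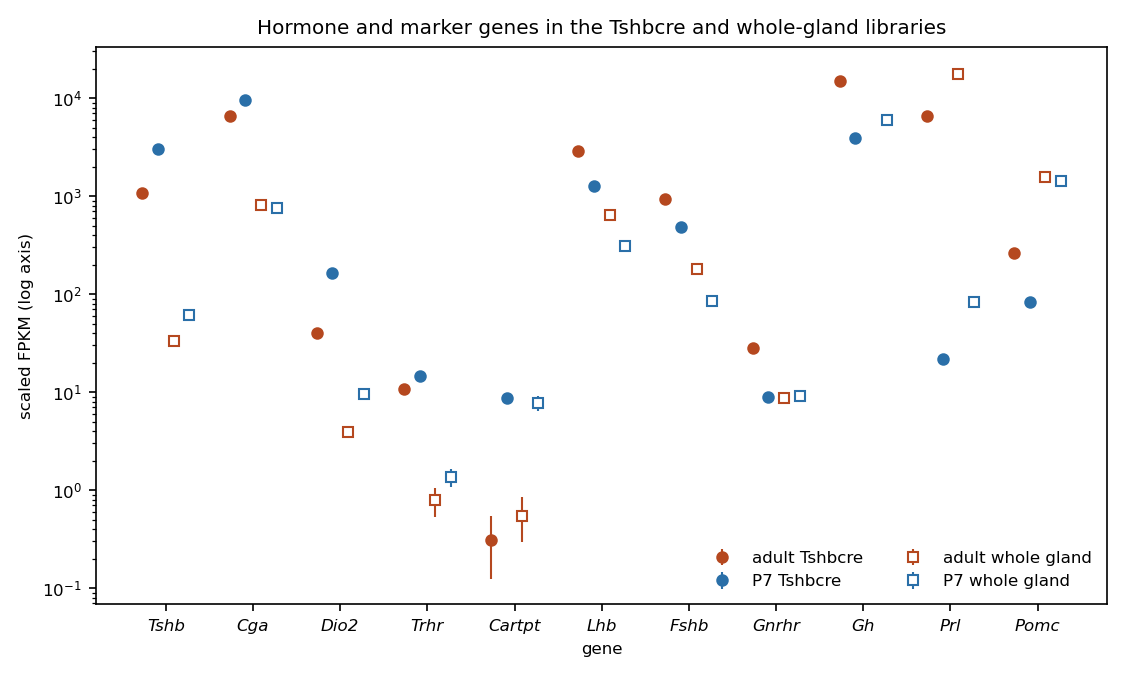
Scaled FPKM, on a log axis, of 11 hormone and marker genes in the adult and P7 Tshbcre libraries (filled circles) and the adult and P7 whole glands (open squares). Lines are the deposited bounds, many shorter than the symbol, and Gh is not shown for the adult whole gland. Tshb, Dio2 and Cartpt lie lower in the adult pool, and Prl, Gh, Lhb and Fshb lie higher.

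Several gonadotrope genes other than the hormones were also higher in the adult pool. The list of 17 genes holds the hormone genes Lhb, Fshb and Cga, and shares Cga, Gata2, Foxl2 and Isl1 with the thyrotrope list. Of the 17, 12 reached 1 scaled FPKM and 10 were above 0 in both. Of these, 5 were 2-fold higher, Lhb and Gata2 among them, and none 2-fold lower. The median, with the hormone genes included, was 1.05, or 0.73 over the measured members with assembled transcripts added. Over all 17 members, 10 were higher in the adult, 6 lower and 1 at the same level. The whole glands had a median of 0.08. Gnrhr, the receptor for gonadotropin-releasing hormone, stood at 28.4 in the adult pool and 8.91 at P7, whereas the whole glands had 8.69 in the adult and 9.17 at P7. Tgfbr3l, which encodes a membrane protein that serves inhibin in gonadotropes of mice, stood at 413 in the adult and 146 at P7. Spp1, the osteopontin gene, passed the 4-fold line, at 155 in the adult against 36.7 at P7. Nr5a1, the nuclear receptor that defines gonadotropes, stood at 26.0 in the adult pool and is listed at 0 at P7. With assembled transcripts added it was 4-fold higher, at 55.7 in the adult against 11.03 at P7. Outside the list, Inhbb, an activin and inhibin subunit gene, stood at 10.4 in the adult and 2.39 at P7. Chst8, also outside the list, whose enzyme adds sulfate to sugars of luteinizing hormone, stood at 10.1 in the adult pool and 2.06 at P7. Thyrotropes also express some of these genes, and the share of cells of either kind was not measured.

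Of the 16 autosomal members of the steroid receptor and response list, 10 had the higher value in the adult pool, 5 the lower and 1 was equal. Esr1, the estrogen receptor alpha gene, stood at 28.5 in the adult pool, with bounds of 26.9 and 30.2, and at 6.84 at P7, with bounds of 6.23 and 7.55. The whole glands had 20.8 in the adult and 5.88 at P7. Greb1, a gene induced by estrogen, stood at 2.58 in the adult pool and 0.176 at P7. Of the 12 measured members of the steroid receptor list, 4 were 2-fold higher in the adult pool and none lower, at a median of 0.78 against 0.16 in the whole glands. The other 2-fold members were Nr3c2, the mineralocorticoid receptor gene, at 5.35 in the adult against 1.35 at P7, and Hsd11b1, which encodes an enzyme that regenerates glucocorticoid, at 5.76 in the adult against 1.51 at P7. Among receptors for hypothalamic signals, Drd2, the dopamine receptor of lactotropes, stood at 3.12 in the adult pool and 0.484 at P7, and Drd4 at 4.23 in the adult and 0.342 at P7. Ghrhr, the receptor for growth hormone-releasing hormone, stood at 6.69 in the adult pool and is listed at 0 at P7. With assembled transcripts added it was lower in the adult, at 18.1 in the adult against 33.4 at P7, so its direction depends on that addition.

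Other lactotrope genes did not follow Prl as far. Of 8 measured members of the list, Prl included, 4 were 2-fold higher and 2 lower in the adult pool, and Prl was the only 1 that was 4-fold higher. The median with Prl included was 0.87, while that of the whole glands was 1.45. Angpt1, which encodes angiopoietin 1, stood at 2.76 in the adult pool and 0.240 at P7. Nr4a1, an immediate early nuclear receptor gene on the same list, was lower, at 28.6 in the adult against 110 at P7.

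The genes farthest apart and higher in the adult pool, by a rule on size, included many genes of other cells. Protein-coding genes that were 4-fold apart, above 0 in both, at 5 or more in the higher library, with bounds that did not overlap and still apart with assembled transcripts added numbered 32 higher and 7 lower. The 12 highest were Prl, Cyp2f2, Ecel1, Cd74, Lyz2, Apoe, Gstm1, Mia, Ctss, C1qb, C1qc and Ifitm3. Cyp2f2, a cytochrome gene of folliculostellate cells, stood at 33.2 in the adult pool and 0.368 at P7, and at 71.0 in the whole adult gland and 1.74 in the whole P7 gland. Mia stood at 15.4 in the adult pool and 0.561 in the P7 pool and at 32.5 in the whole adult gland and 20.9 in the whole P7 gland. Ecel1, which encodes an endopeptidase of neural and endocrine cells, stood at 48.9 in the adult against 2.08 at P7, 16.2-fold higher on the log2(scaled FPKM + 1) scale. It was also higher in the adult whole gland, at 28.5 in the adult against 0.930 at P7. Gstm1, a glutathione transferase gene, stood at 30.6 in the adult and 1.92 at P7. Ifitm3, an interferon-induced gene, stood at 16.7 in the adult pool and 1.54 at P7, with whole glands at 42.8 in the adult and 44.0 at P7.

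Macrophage genes were higher in the adult pool throughout. All 11 members of the immune list were higher in the adult pool, and 10 of them were under 1 scaled FPKM at P7. Of the 8 that reached 1, all were 2-fold higher and 4 were 4-fold higher, at a median of 2.20 against 0.71 in the whole glands. Most of the 8 reached 1 in the adult pool alone, which favours that direction. Over all 11 members, without that filter, the median in the pools was 1.53. The summed level of the list was 56.6 in the adult pool and 4.40 at P7, against 85.0 in the whole adult gland and 39.4 in the whole P7 gland. C1qb, a chain of the first complement component, stood at 11.2 in the adult and 0.509 at P7, and C1qa and C1qc, the other chains, at 9.78 and 9.31 in the adult pool and 0.735 and 0.340 at P7. Lyz2, the lysozyme gene of myeloid cells, stood at 11.02 in the adult and 0.00995 at P7. Csf1r, the receptor that macrophages need, stood at 3.16 in the adult pool and 0.217 at P7. Cd74 and H2-Aa, which present antigen, stood at 18.1 and 6.81 in the adult pool and at 0.575 and 0.551 at P7. The adult whole gland was also higher for these, with Cd74 at 63.9 in the adult against 5.08 at P7. Apoe, a lipid carrier gene of macrophages and glia, stood at 66.2 in the adult and 5.16 at P7, and Ctss, a lysosomal protease gene, at 13.8 in the adult and 0.576 at P7. Cd68 stood at 3.12 in the adult and 0.560 at P7, but at 5.03 in the adult and 4.09 at P7 with assembled transcripts added.

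Stem and folliculostellate genes differed in the same direction, where the whole glands did not. All 18 members had the higher value in the adult pool, except that Vim turned lower when the annotated genes were scaled to equal sums (-0.20), and 13 of the 18 were under 1 scaled FPKM at P7. Of the 13 above 0 in both that reached 1 in either, 8 were 2-fold higher. The median was 1.30 over these, against -0.39 in the whole glands. Over all 18 members, without the filter on level, the median in the pools was 1.09. Sox2, the stem cell factor of the gland, stood at 5.72 in the adult pool and 0.908 at P7, while the whole glands had 6.95 in the adult and 14.1 at P7. Rbpms, which encodes an RNA-binding protein, stood at 14.6 in the adult pool and 2.80 in the P7 pool and at 10.98 in the whole adult gland and 60.5 in the whole P7 gland. Aldh1a2, a retinoic acid synthesis gene, stood at 11.1 in the adult and 1.60 at P7, and Krt8, a keratin gene, at 12.6 in the adult and 4.52 at P7. Lcn2, the lipocalin 2 gene, stood at 15.8 in the adult pool and is listed at 0 at P7. Vim, the vimentin gene, did not follow them, at 1.73 in the adult pool and 1.70 at P7 with overlapping bounds.

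Vessel and connective tissue genes were low in both pools. Of 12 endothelial genes, 11 were higher in the adult, and of the 7 measured above 0 in both, 2 were 2-fold higher and none 2-fold lower. Plvap, a gene of fenestrated vessels, stood at 8.09 in the adult pool and 1.68 at P7, against 63.1 in the whole adult gland and 31.7 in the whole P7 gland. Mgp, the matrix Gla protein gene, stood at 5.17 in the adult and 0.370 at P7, and Dcn, the decorin gene, at 6.62 in the adult and 1.17 at P7. The fibrillar collagen gene Col1a1 stood at 1.12 in the adult and 1.16 at P7, although the whole glands had 10.3 in the adult and 57.0 at P7. Globin genes were lower in the adult pool, Hbb-bs at 45.0 in the adult against 62.3 at P7 and Hba-a1, which shares reads with its copy Hba-a2, at 33.5 in the adult against 50.0 at P7.

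**Figure D4:**
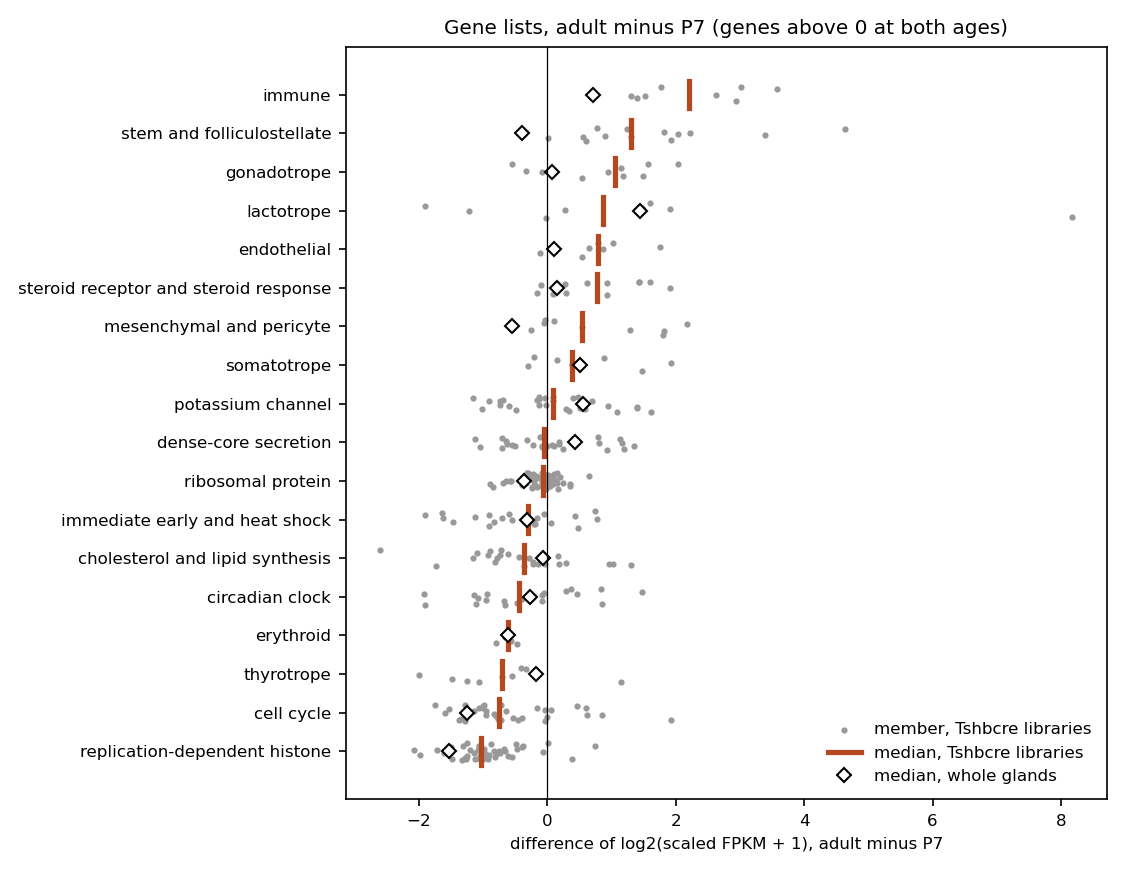
Difference of log2(scaled FPKM + 1), adult minus P7, for members of 18 gene lists. Points are members above 0 in both Tshbcre libraries and at 1 scaled FPKM or more in either, bars their medians, and diamonds the medians of the same lists between the whole glands. Immune and stem medians lie at 2.20 and 1.30 in the pools, and cell cycle and histone medians at -0.76 and -1.02.

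Genes of dividing cells were lower in the adult pool. Of all 49 members of the cell cycle list, 41 were lower in the adult and 8 higher. The list had 43 measured members, of which 34 were above 0 in both pools, with 28 of these lower in the adult, 11 of them 2-fold, and 1 higher 2-fold. The median was -0.76 in the pools and -1.24 in the whole glands. Restricted to members at 5 or more in either pool, the median over the measured genes was 0.00480, so the direction of the list depends on that filter. Top2a, the topoisomerase of dividing cells, stood at 0.671 in the adult pool and 4.61 at P7, and at 0.902 in the whole adult gland and 10.5 in the whole P7 gland. Mki67, which encodes the proliferation marker Ki-67, is listed at 0 in the adult pool and stood at 4.96 at P7, or at 0.809 in the adult and 4.96 at P7 with assembled transcripts added. Birc5, a gene of mitosis, stood at 0.539 in the adult and 3.64 at P7. The D cyclin genes went the other way, Ccnd1 at 19.2 in the adult pool and 10.2 at P7 and Ccnd2 at 51.4 in the adult and 33.2 at P7.

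Replication-dependent histone genes, which are transcribed as DNA is copied, were lower in the adult pool nearly throughout. All 57 autosomal members were measured, with 53 lower in the adult and 4 higher. Of these members, 51 were above 0 in both pools, and 48 of these were lower in the adult, 26 of them 2-fold with none 2-fold higher. The median was -1.02, and -1.52 in the whole glands, where 45 of 56 were 2-fold lower. H3c3 stood at 3.76 in the adult pool and 18.9 at P7, against 5.95 in the whole adult gland and 36.5 in the whole P7 gland. H1f3, a linker histone gene, stood at 7.19 in the adult pool and 25.8 in the P7 pool and 7.12 in the whole adult gland and 26.2 in the whole P7 gland. H2bc4 was an exception, at 51.8 in the adult pool and 39.3 at P7. Histone genes are near-identical copies and their reads may be shared. Marcks, which encodes a substrate of protein kinase C, and Hmgn2, which encodes a nucleosome-binding protein, stood at 4.81 and 19.7 in the adult pool and at 16.2 and 47.1 at P7.

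**Figure D5:**
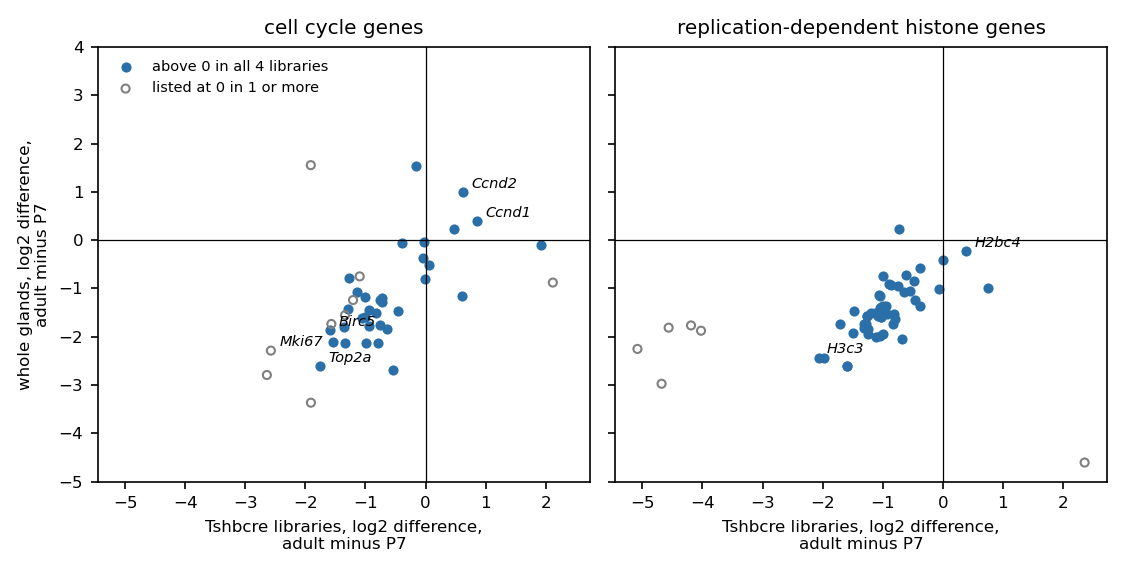
Log2 difference, adult minus P7, in the Tshbcre libraries (horizontal axis) and the whole glands (vertical axis) for cell cycle genes, left, and replication-dependent histone genes, right. Filled points are above 0 in all 4 libraries and open ones are listed at 0 in 1 or more. Most points lie below and left of 0, and Ccnd1 and Ccnd2 lie above and right of it.

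Neuropeptide genes differed gene by gene. Of 57 autosomal members, 19 were measured and 16 above 0 in both pools, with 5 of them 2-fold higher and 3 lower in the adult. Cartpt (chromosome 13, 100034991 to 100037191) was 4-fold lower, with bounds of 0.124 and 0.548 in the adult pool and of 7.74 and 9.88 at P7, and the whole glands had 0.545 in the adult and 7.75 at P7. Its level was thus similar in sorted cells and in whole glands at each age, and the pools were not richer in it than the tissue. Cck, the cholecystokinin gene, was the contrary case, at 20.7 in the adult pool and 23.9 at P7, with overlapping bounds, and 0.411 in the whole adult gland and 0.341 in the whole P7 gland. Gal, the galanin gene, stood at 2.08 in the adult pool and 0.496 at P7, and Vgf, a granin-like precursor gene, at 1.93 in the adult and 5.04 at P7.

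Genes concentrated in the sorted cells at both ages did not shift together. They were chosen after values were seen, among protein-coding genes at 5 scaled FPKM or more in both pools and above 0 in both whole glands. Of these, 14 were at least 4-fold above the whole gland of the same age in both pools. Among the 14, 7 were higher and 7 lower in the adult pool and 9 lay within 2-fold. They were Tshb, Dio2, Cga, Trhr, Nell1, Cck, Col24a1, Apoc3, Scg2, Chga, Hecw2, Fshb, Lhb and Spp1. Nell1, which encodes a secreted signalling protein, was lower, at 9.09 in the adult against 25.1 at P7. Hecw2, a ubiquitin ligase gene, stood at 23.6 in the adult pool and 12.1 at P7, and Col24a1, a collagen gene, at 14.3 in the adult and 15.5 at P7, a difference that turns positive with assembled transcripts added. Apoc3, an apolipoprotein gene, stood at 8.60 in the adult and 7.99 at P7, a difference that turns negative under equal-sum scaling. Genes of dense-core secretion showed no common direction either, with a median of -0.05 over 27 members, 4 of them 2-fold higher and 2 lower. Chga, a granin of the granule, stood at 1155 in the adult pool and 663 at P7, and Scg2, another granin, at 1391 in the adult and 1228 at P7, a difference that turns negative under equal-sum scaling. Scg3 stood at 83.6 in the adult and 136 at P7. Ptprn, the granule phosphatase gene, stood at 47.0 in the adult and 103 at P7, and its relative Ptprn2 at 86.3 in the adult and 37.1 at P7, or at 111 in the adult against 138 at P7 and 86.3 in the adult against 57.8 at P7 with assembled transcripts added.

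Among channels of excitability, Cacna1d, which encodes a calcium channel of endocrine cells, stood at 41.7 in the adult pool and 16.1 at P7, while the whole glands had 14.2 in the adult and 20.2 at P7. Cacna1h, a T-type channel gene, was lower, at 0.845 in the adult against 3.77 at P7. The potassium channel list had 4 members 2-fold higher and 2 lower of 29 above 0 in both. Over all such genes, 7.29% were 2-fold higher and 5.86% 2-fold lower. Kcnk9, a leak channel gene enriched in the sorted cells, stood at 29.0 in the adult and 54.9 at P7, against 6.91 in the whole adult gland and 4.22 in the whole P7 gland. Kcnk1 and Kcnc4 were higher, at 8.93 and 8.12 in the adult pool against 2.25 and 2.47 at P7.

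Genes of stress and stimulation were lower in the adult pool. Of 23 immediate early and heat shock genes, 5 were 2-fold lower and none 2-fold higher, at a median of -0.29. The whole glands had a median of -0.32, with 3 members 2-fold lower and 1 higher. Hspa1a, an inducible heat shock gene with a near-identical copy in Hspa1b, stood at 49.4 in the adult pool and 154 at P7, and in the opposite order in the whole glands, at 177 in the adult and 93.6 at P7. Egr1, an immediate early factor used by gonadotropin signalling, stood at 58.5 in the adult and 128 at P7, Arc at 9.35 in the adult and 27.6 at P7, and Fos at 74.9 in the adult and 91.9 at P7. These 3 were also lower in the adult whole gland, Arc at 12.7 in the adult against 28.1 at P7. Of 20 clock genes, 5 were 2-fold lower and 1 higher, Per3 at 3.60 in the adult pool and 16.1 at P7 and Arntl at 11.5 in the adult and 3.48 at P7. Neither stayed 2-fold apart with assembled transcripts added.

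Cholesterol synthesis genes were lower in the adult pool as a group, with 20 of 26 members above 0 in both lower, 4 of them 2-fold lower and 2 higher, at a median of -0.36 against -0.06 in the whole glands. Mvd, which encodes a decarboxylase of the pathway, stood at 2.11 in the adult pool and 5.90 at P7. Stard4, a sterol carrier gene, stood at 0.285 in the adult and 6.75 at P7, or 2.56 in the adult and 6.75 at P7 with assembled transcripts added. Sqle, the squalene epoxidase gene, stood at 3.16 in the adult and 12.8 at P7, but at 14.6 in the adult and 18.9 at P7 with them. Growth-phase and imprinted genes were more often lower in the adult pool, with 13 of 18 members above 0 in both lower and 5 higher, 3 of them 2-fold lower and 1 higher, at a median of -0.27 against -0.20 in the whole glands. Over all 31 members, 22 were lower and 7 higher. Mest stood at 93.3 in the adult pool and 207 at P7, H19 at 0.174 in the adult and 2.05 at P7, Dlk1 at 324 in the adult and 399 at P7 and Meg3 at 624 in the adult and 642 at P7, while Nnat, the neuronatin gene, was higher in the adult, at 999.7 in the adult against 375 at P7. Of these, Dlk1 went the other way in the whole glands, at 522 in the adult and 182 at P7.

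Developmental transcription factor genes held 11 members 2-fold higher and 4 lower in the adult pool, of 42 above 0 in both. At any size 20 were higher and 22 lower, so the median was -0.02, against -0.40 in the whole glands, where 1 was 2-fold higher and 6 lower. Eya1, a coactivator gene of the early gland, stood at 13.98 in the adult pool and 3.91 at P7, whereas the whole glands had 2.67 in the adult and 20.5 at P7. Insm1, a factor of endocrine differentiation, was lower, at 11.9 in the adult against 25.7 at P7, and Id1, an inhibitor of differentiation, at 1.09 in the adult against 4.07 at P7. Lhx3, needed to form the gland, stood at 31.3 in the adult and 3.32 at P7 on annotated transcripts and at 31.3 in the adult and 26.7 at P7 with assembled ones. Pitx1 stood at 53.4 in the adult and 56.8 at P7, with overlapping bounds and a difference that turns positive with assembled transcripts added. None of the 54 ribosomal protein genes above 0 in both differed 2-fold, and their median was -0.07, against -0.36 in the whole glands, with 3 more listed at 0 at P7. Over all measured members the median was -0.39 with scaling to an equal sum of FPKM. These genes are no separate check on scale, because genes at 1 or more in every library set the factors.

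Genes 4-fold lower in the adult pool by the same rule on size numbered 7 among protein-coding genes. Besides Cartpt and H3c3 they were Atp5k, Frg1, 1110017D15Rik, Prss28 and Tagln3. Tagln3, a neuronal actin-associated gene, stood at 3.15 in the adult pool and 17.8 at P7, and Prss28, a serine protease gene, at 4.20 in the adult and 28.4 at P7. On annotated transcripts both were under 1.2 in the whole glands. Tagln3 stood there at 0.653 in the adult and 0.579 at P7 and Prss28 at 1.10 in the adult and 0.742 at P7. With assembled transcripts added, Tagln3 stood at 3.14 in the whole P7 gland. The sorted cells were above the whole gland for both genes at both ages. In the adult pool Tagln3 was at 482% and Prss28 at 381% of the whole gland. Atp5k, which encodes a subunit of the ATP synthase, stood at 2.84 in the adult and 71.9 at P7, with 12.1 in the whole adult gland and 18.2 in the whole P7 gland. Frg1 stood at 0.661 in the adult and 9.90 at P7 and overlaps Asah1 in the files. Calb1, the calbindin gene, not past the 4-fold line, stood at 2.96 in the adult pool and 10.7 at P7, with 5.26 in the whole adult gland and 3.29 in the whole P7 gland.

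No lncRNA gene passed this rule as higher in the adult pool, and 5 passed as lower. Gm42186 (chromosome 3, 17171297 to 17193926) stood at 96.4 in the adult pool, with bounds of 0 and 233, and at 1596 at P7, with bounds of 1030 and 2161. It was also lower in the adult whole gland, at 25.3 in the adult against 261 at P7. Gm52011 (chromosome 12, 38396268 to 38418073), which overlaps Dgkb, stood at 2.74 in the adult and 108 at P7. Gm51914, which overlaps Vmp1, stood at 0.199 in the adult and 12.8 at P7, and LOC108168764, which overlaps Stk39, at 0.562 in the adult and 10.6 at P7. Gm34259 stood at 0.173 in the adult pool and 4.94 at P7 and is listed at 0 in both whole glands. Their bounds are wide, and where they overlap another gene the reads may be that gene's, since counting by strand is not stated. Gas5, a known lncRNA that hosts small nucleolar RNAs, stood at 20.2 in the adult pool and 44.3 at P7.

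The age difference of the pools was also set beside that of the whole glands gene by gene. Among 3808 protein-coding genes above 0 in both pools, at 5 or more in the higher and with bounds that did not overlap, 175 were at least 2-fold higher and 126 at least 2-fold lower in the adult with and without assembled transcripts. This set was chosen after values were seen. Of the higher ones, 168 were above 0 in both whole glands, and 122 of these had the same direction there and 47 were also 2-fold. Of the lower ones, 119 were above 0 in both whole glands, and 93 of these had the same direction and 49 were also 2-fold, and 24 of the 119 were histone genes. Over all genes above 0 in both whole glands, 5.39% were 2-fold higher and 5.86% 2-fold lower in the adult whole gland. The share of all 3808 genes with the same direction in pools and whole glands was not counted. The counts of same direction therefore have no background beside them. The whole gland libraries are separate animals, but they share the ages and the difference in Xist.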

How the data were processed

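Each of the 6 libraries is a Cufflinks isoform table that the authors deposited, with FPKM per transcript, bounds and a status, per the file headers. FastQC, Bowtie2, Cufflinks and mm39 are named, without versions, in the submitters' processing notes. The deposited coverage is a constant multiple of FPKM in each file and was used as relative depth. Read numbers are not stated in the sources used.

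Gene values were FPKM summed over a gene name and divided by the median of ratios over 5808 genes at 1 or more in all 6 libraries, giving factors of 1.00 for adult Tshbcre, 0.976 for P7 Tshbcre, 1.10 for the adult whole gland and 1.42 for the P7 whole gland. Bounds of a gene are sums over its transcripts. Genes were called at 4-fold on log2(scaled FPKM + 1), with the higher library at 1 or more, using pandas 2.3.3 and numpy 2.4.6, and the steps were tested on simulated data. Scaling, pseudocounts, filters and assembled transcripts were varied. Of the unnamed transcripts, 51.9% in the adult Tshbcre library and 13.8% at P7 reached 200 nt, so their addition is uneven.

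Named genes are the 12 coding and 5 lncRNA genes per direction with the largest difference, above 0 in both pools, at 5 (lncRNA 1) or more, with separate bounds and 4-fold apart with assembled transcripts added, plus markers and list members. Others named, such as Marcks, Hmgn2 and Calb1, were picked after their values were seen. Members, lists and rules were chosen with earlier results of these data known. X-linked and Y-linked genes were left out of all counts. Replicates were not available, so no p-value was computed. The values of a few genes are not reported here, and the counts of single genes under the alternatives leave them out.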

Additional observations from a re-analysis of the deposited data

Results flagged for a closer look

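Genes above 0 in all 4 libraries that were 4-fold apart one way between the sorted pools and 4-fold the other way between the whole glands numbered 4. With 1 library per group these differences between the contrasts were not tested. Rbpms had a log2 difference, adult minus P7, of 2.04 in the pools and -2.36 in the whole glands, with 14.6 scaled FPKM in the adult pool and 2.80 in the P7 pool, while the whole glands had 10.98 in the adult and 60.5 at P7. LOC108168764, which overlaps Stk39, had -2.90 in the pools and 2.14 in the whole glands. Gm23709, a small nucleolar RNA gene (chromosome 4, 43136499 to 43136628), had -5.26 in the pools, at 3.003 in the adult and 152 at P7, and 2.20 in the whole glands, at 31.5 in the adult and 6.09 at P7. Gm25101, a small nuclear RNA gene (chromosome 15, 21114455 to 21114561), had 4.69 in the pools, at 70.3 in the adult and 1.76 at P7, and -3.22 in the whole glands, at 3.39 in the adult and 39.8 at P7. The deposited bounds of Gm23709 and Gm25101 reach down to 0 in the lower library of each contrast.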

How the results depend on the processing

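The number of genes 4-fold apart between the pools, 1283, with 728 higher and 555 lower in the adult, depended on the pseudocount and on genes listed at 0. It was 2819, with 1482 and 1337, at a pseudocount of 0.1, and 366, with 221 and 145, at a pseudocount of 5. Over genes above 0 in both libraries it was 174, with 93 and 81. It stayed between 933 and 1298 under the other 7 alternatives. The share of higher genes was 56.7%, and 48.8% with scaling to an equal sum of FPKM, which moved the median of all genes to -0.294. Of 145 single genes recomputed, 140 kept their sign under this scaling, and Thrb, Thra, Vim, Scg2 and Apoc3 turned slightly negative. Of 31 list medians, taken here over all measured members, 26 kept their sign. The corticotrope, melanotrope, thyroid hormone, unfolded protein and developmental factor medians turned negative. The developmental factor median over all measured members was 0.10 before this scaling, and -0.02 over members above 0 in both. Adding assembled transcripts kept the sign of 138 of the 145 genes and moved 41 beyond their bounds. It reversed Ghrhr, to -0.85 in place of 2.94, a value set against a listed 0 at P7. It also changed the sign of Thrb, Pitx1, Col24a1, Vamp2, Creb3l2 and Sel1l, the last to -0.70 in place of 1.64. The cause was not tested. It kept the sign of 26 of the 31 list medians, and the thyroid hormone, neuropeptide, both channel and the axon guidance medians changed sign. No paired analysis was possible because each group is 1 library. Differences between animals, the sex makeup of the pools and the carry-over of other cells are not separated from age, and low genes are limited by counting in single libraries.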
